A study of Mus musculus with 8 samples.

Results

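The 36 genes described here encode the regulators, the contractile apparatus and the nerve contact of skeletal muscle, and they were taken by symbol from the 52636 genes measured in mouse esophageal organoids. All 36 were found. They comprise 5 myogenic regulators, 24 genes of the sarcomere and its anchoring filament, 3 genes of energy and calcium handling, and 4 genes of the neuromuscular junction. The choice used no measured value of a comparison, although it was made with earlier results of these data known.

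Organoids are 3-dimensional cultures, grown here from digested esophagi of wild-type mice in Matrigel, a basement membrane extract, over 13 days, and given fresh medium every 2 days. RNA was sequenced from 8 libraries in 4 groups of 2, whose cell type is labelled as esophageal epithelial cells. The inhibitor group received A8301, a small-molecule blocker of the TGFb type I receptors, at 500 nM. The BMP4 group received BMP4 at 20 ng/ml together with that inhibitor. TGFb1 was given alone at 1 ng/ml to the TGFb1 group, and together with BMP4, at the same doses, to the last group. Ligands and inhibitor were present for 72 h and replaced after every 24 h. No inhibitor is listed for the TGFb1 groups, so a comparison of either with an inhibitor group covers the added ligand and the absent inhibitor together. The labels number the libraries of each group 1 and 2 without saying what a number shares or whether separate animals were used, so p-values measure the spread between these libraries.

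Skeletal muscle forms when Pax7-bearing satellite cells or embryonic precursors switch on the basic helix-loop-helix factors Myf5 and Myod1 and later Myog and Myf6, which bind short E-box sequences in muscle genes. The resulting myoblasts leave the cell cycle, fuse into fibres and assemble sarcomeres of actin and myosin filaments. The wall of the mouse esophagus is mostly skeletal muscle, which replaces smooth muscle before and after birth, whereas the lining is a squamous epithelium. TGFb ligands and BMP ligands are known mainly as inhibitors of myogenic differentiation in cultured myoblasts.

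Values are CPM, a gene's count relative to the library's total on a scale common to all libraries, and are given in the order replicate 1, replicate 2. Scaled totals lay between 20011215 and 20013233 per library, so the deposited values do not show depth directly, and 3 units of the scaled values correspond to 0.15 CPM, below which a level is imprecise. Between 23718 and 27476 genes were above 0. Keratins and other markers of squamous epithelium, the labelled cell type, summed to between 15785 and 27364 CPM. In these bulk libraries a smaller number of muscle cells and less muscle RNA per cell cannot be told apart.

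Every one of the 36 genes was above 0 in every library, but at low levels. Their summed level was 46.7 and 198 CPM with inhibitor, 148 and 569 with BMP4 and inhibitor, 192 and 802 with TGFb1, and 268 and 1503 with TGFb1 and BMP4. The inhibitor libraries had the lowest sum and the TGFb1 and BMP4 libraries the highest at either replicate number, and replicate 2 was above replicate 1 in every group. The sums of the 2 libraries with TGFb1 and BMP4 were above both inhibitor sums, and all other pairs of groups overlapped. Per kilobase of exon, which allows genes to be compared, the 4 highest mean levels over the 8 libraries were those of Acta1 at 49.9, Des at 15.05, Mylpf at 11.8 and Myl1 at 10.4 CPM per kb.

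**Figure D1:**
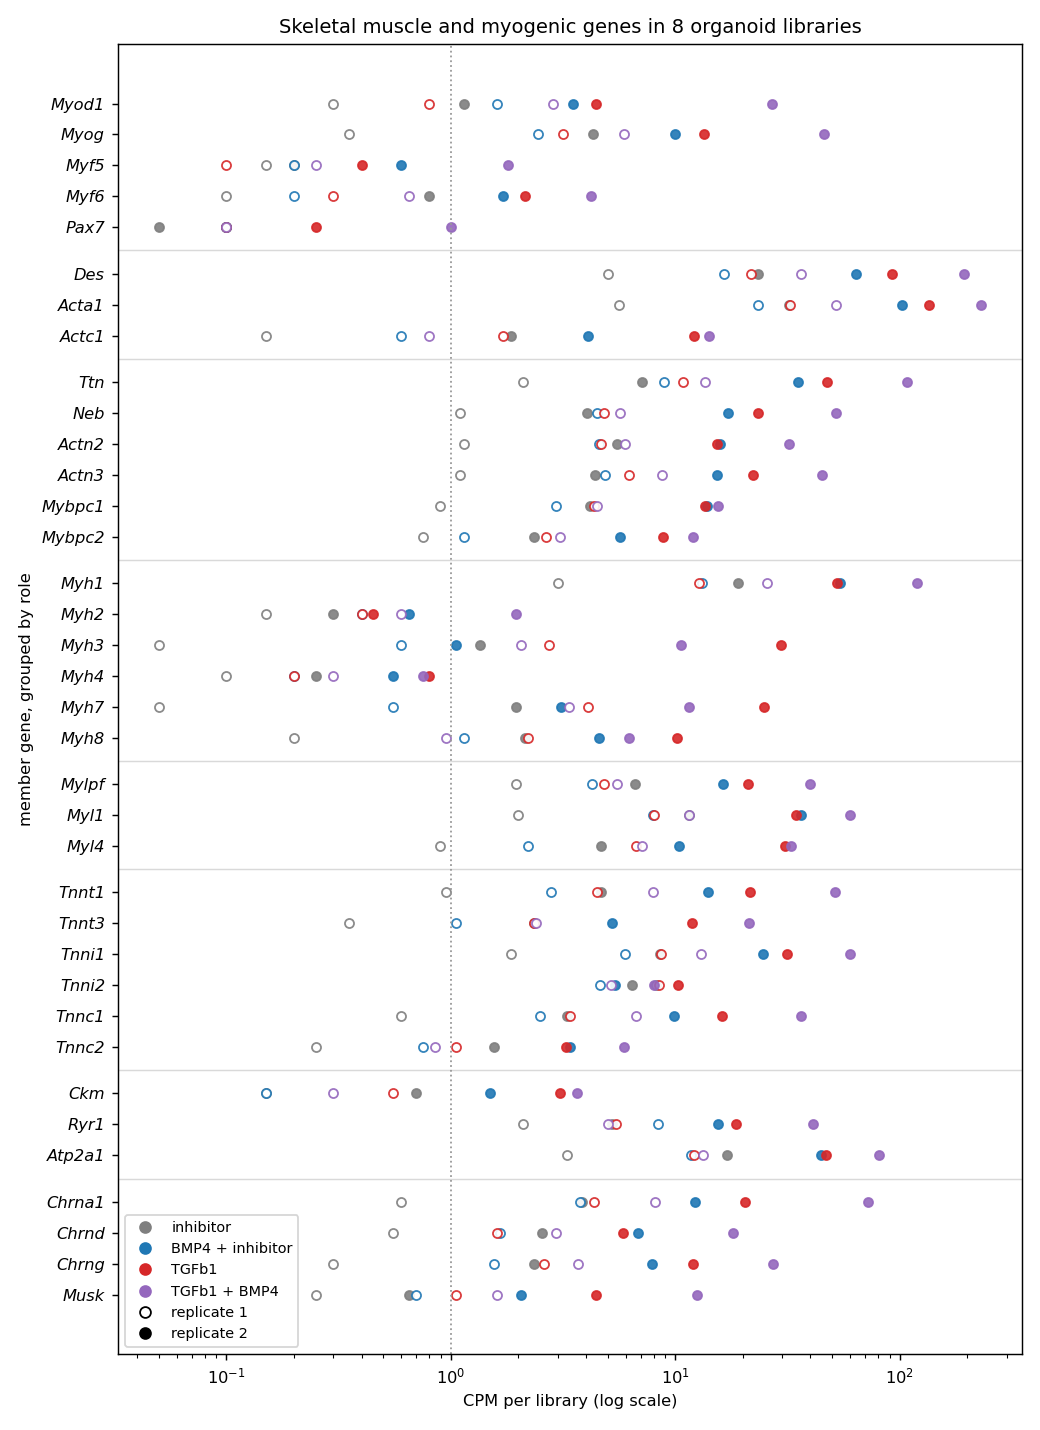
CPM of each of the 36 genes (rows, grouped by role) on a log axis in the 8 libraries. Colours mark the groups, open circles replicate 1 and filled circles replicate 2, and the dotted line marks the level of 1 CPM used in the filter; the filled circles lie to the right of the open circles of the same colour for 34 of the 36 genes in all 4 groups.

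Among the regulators, Myog was the most abundant per kilobase in every library. Myog (chromosome 1, 134289989 to 134292548, plus strand, GRCm38), which drives myoblasts into terminal differentiation, was at 0.35 and 4.30 CPM with inhibitor, 2.45 and 9.94 with BMP4 and inhibitor, 3.15 and 13.4 with TGFb1, and 5.90 and 45.7 with TGFb1 and BMP4. Myod1 (chromosome 7, 46376474 to 46379099, plus strand), the factor that commits cells to the myogenic lineage, was at 0.3 and 1.15 CPM with inhibitor, 1.60 and 3.50 with BMP4 and inhibitor, 0.799 and 4.45 with TGFb1, and 2.85 and 27.1 with TGFb1 and BMP4. For both genes the library with TGFb1 and BMP4, replicate 2, stood above all others and inhibitor replicate 1 below all others, and neighbouring groups overlapped. Myf6 (chromosome 10, 107492853 to 107494737, minus strand), expressed in maturing fibres, was at 0.1 and 0.8 CPM with inhibitor, 0.2 and 1.70 with BMP4 and inhibitor, 0.3 and 2.15 with TGFb1, and 0.65 and 4.20 with TGFb1 and BMP4. Its neighbour Myf5 (chromosome 10, 107482908 to 107486134, minus strand), the earliest of the family in the embryo, was at 0.15 and 0.2 CPM with inhibitor, 0.2 and 0.6 with BMP4 and inhibitor, 0.1 and 0.4 with TGFb1, and 0.25 and 1.80 with TGFb1 and BMP4. Pax7 (chromosome 4), the satellite cell factor, was at 0.1 and 0.05 CPM with inhibitor, 0.1 and 0.1 with BMP4 and inhibitor, 0.1 and 0.25 with TGFb1, and 0.1 and 0.999 with TGFb1 and BMP4. Myf5 and Pax7 were thus near the counting floor outside replicate 2 of TGFb1 and BMP4, and neither reached the 1 CPM in 2 libraries that was required for a test.

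The promoter of Myog is shown because it is the regulator with the highest level, with matches to the E-box CANNTG in capitals. The 250 bases before its RefSeq start lie at chr1:134289754-134290003 on the plus strand of GRCm38.p6.
Myog: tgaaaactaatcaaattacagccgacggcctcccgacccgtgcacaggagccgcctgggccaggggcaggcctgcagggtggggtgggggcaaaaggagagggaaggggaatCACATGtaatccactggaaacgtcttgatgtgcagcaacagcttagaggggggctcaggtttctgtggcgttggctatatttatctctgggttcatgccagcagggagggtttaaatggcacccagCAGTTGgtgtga
The matches begin 138 and 12 bases before the start.

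Desmin and the actins form the filament that ties myofibrils together and the thin filament itself. Des was at 5.00 and 23.2 CPM with inhibitor, 16.5 and 64.1 with BMP4 and inhibitor, 21.7 and 92.7 with TGFb1, and 36.2 and 192 with TGFb1 and BMP4. Acta1, the actin of adult skeletal muscle, was at 5.60 and 32.2 CPM with inhibitor, 23.2 and 102 with BMP4 and inhibitor, 32.5 and 135 with TGFb1, and 51.8 and 231 with TGFb1 and BMP4. For Acta1 both TGFb1 libraries and both libraries with TGFb1 and BMP4 were above both inhibitor libraries, although TGFb1 replicate 1, at 32.5, was only just above inhibitor replicate 2, at 32.2. Actc1, the actin of heart and embryonic skeletal muscle, was at 0.15 and 1.85 CPM with inhibitor, 0.6 and 4.10 with BMP4 and inhibitor, 1.70 and 12.1 with TGFb1, and 0.8 and 14.1 with TGFb1 and BMP4, and it held between 1.44 and 7.88% of the summed CPM per kb of the pair.

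The promoters of Acta1 and Des are shown because these genes had the highest levels per kilobase. The Acta1 window lies at chr8:123894776-123895025 on the minus strand and the Des window at chr1:75360042-75360291 on the plus strand of GRCm38.p6, with E-boxes and, in Acta1, a CArG box (the binding sequence of serum response factor) in capitals.
Acta1: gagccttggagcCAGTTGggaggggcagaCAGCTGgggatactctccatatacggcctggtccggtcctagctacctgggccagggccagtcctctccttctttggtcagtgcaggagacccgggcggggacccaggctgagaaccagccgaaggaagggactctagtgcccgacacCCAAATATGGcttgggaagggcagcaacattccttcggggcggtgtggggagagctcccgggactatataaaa
Des: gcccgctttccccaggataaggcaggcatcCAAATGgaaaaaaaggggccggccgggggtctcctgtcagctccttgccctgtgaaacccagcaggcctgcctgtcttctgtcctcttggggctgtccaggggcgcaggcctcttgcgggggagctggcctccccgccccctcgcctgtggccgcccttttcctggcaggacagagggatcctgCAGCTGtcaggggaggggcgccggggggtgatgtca
Each window held an E-box of the form CAGCTG, 221 bases before the start of Acta1 and 36 bases before that of Des, and the CArG box of Acta1 began 73 bases before its start.

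The scaffold genes of the sarcomere were lowest with inhibitor and highest with TGFb1 and BMP4 at both numbers. Ttn, the giant protein that spans from the Z-disc to the middle of the sarcomere, was at 2.10 and 7.10 CPM with inhibitor, 8.89 and 35.2 with BMP4 and inhibitor, 10.8 and 47.6 with TGFb1, and 13.5 and 108 with TGFb1 and BMP4. Neb, which lines the thin filament, was at 1.099 and 4.05 CPM with inhibitor, 4.50 and 17.2 with BMP4 and inhibitor, 4.80 and 23.4 with TGFb1, and 5.70 and 52.2 with TGFb1 and BMP4. The Z-disc cross-linker Actn3, confined to fast fibres, was at 1.099 and 4.398 CPM with inhibitor, 4.85 and 15.3 with BMP4 and inhibitor, 6.20 and 22.1 with TGFb1, and 8.70 and 44.8 with TGFb1 and BMP4. For these genes both libraries with TGFb1 and BMP4 were above both inhibitor libraries. Actn2, the alpha-actinin of all fibres and heart, was at 1.15 and 5.50 CPM with inhibitor, 4.55 and 15.8 with BMP4 and inhibitor, 4.65 and 15.3 with TGFb1, and 5.95 and 32.0 with TGFb1 and BMP4. The slow-type myosin binding protein Mybpc1 was at 0.899 and 4.15 CPM with inhibitor, 2.95 and 13.8 with BMP4 and inhibitor, 4.35 and 13.5 with TGFb1, and 4.50 and 15.5 with TGFb1 and BMP4, and the fast-type Mybpc2 was at 0.75 and 2.35 CPM with inhibitor, 1.15 and 5.65 with BMP4 and inhibitor, 2.65 and 8.79 with TGFb1, and 3.05 and 12.0 with TGFb1 and BMP4. Mybpc1 differed little between TGFb1 alone and TGFb1 with BMP4 at either number, while Ttn and Neb were higher with the combination at both numbers.

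Myosin heavy chains set the speed of a fibre, and 5 of the 6 measured lie in a single cluster on chromosome 11 between 67078300 and 67308634. Myh1, the chain of fast 2X fibres, was at 3.00 and 18.9 CPM with inhibitor, 13.2 and 54.0 with BMP4 and inhibitor, 12.8 and 52.7 with TGFb1, and 25.7 and 119 with TGFb1 and BMP4. Myh3, the embryonic chain, was at 0.05 and 1.35 CPM with inhibitor, 0.6 and 1.05 with BMP4 and inhibitor, 2.75 and 29.5 with TGFb1, and 2.05 and 10.5 with TGFb1 and BMP4. Myh7 (chromosome 14), the chain of slow fibres and of the heart, was at 0.05 and 1.95 CPM with inhibitor, 0.55 and 3.098 with BMP4 and inhibitor, 4.10 and 24.8 with TGFb1, and 3.35 and 11.5 with TGFb1 and BMP4. Myh3 and Myh7 were highest with TGFb1 alone at either replicate number, unlike Myh1, which was highest with TGFb1 and BMP4. Myh8, the perinatal chain, was at 0.2 and 2.15 CPM with inhibitor, 1.15 and 4.55 with BMP4 and inhibitor, 2.199 and 10.2 with TGFb1, and 0.949 and 6.20 with TGFb1 and BMP4. Myh2, the chain of fast 2A fibres, reached only 1.95 CPM and Myh4, of fast 2B fibres, only 0.799 CPM, and neither passed the filter.

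As shares of the summed CPM per kb of the 6 heavy chains, Myh1 held 87.3 and 80.7% with inhibitor, 85.6 and 88.5 with BMP4 and inhibitor, 62.6 and 48.5 with TGFb1, and 81.1 and 82.4 with TGFb1 and BMP4. The share of Myh3 was 1.53 and 6.03% with inhibitor, 4.08 and 1.80 with BMP4 and inhibitor, 14.1 and 28.5 with TGFb1, and 6.79 and 7.65 with TGFb1 and BMP4. That of Myh7 was 1.07 and 6.12% with inhibitor, 2.63 and 3.75 with BMP4 and inhibitor, 14.8 and 16.8 with TGFb1, and 7.80 and 5.86 with TGFb1 and BMP4. Both TGFb1 libraries therefore had a lower Myh1 share and higher Myh3 and Myh7 shares than the 6 other libraries, with no overlap. In inhibitor replicate 1, Myh3 and Myh7 were each at 0.05 CPM, below the 0.15 CPM under which levels are imprecise, and so are their shares there. With 2 libraries against 2, an exact two-sided permutation test cannot give a p below 0.333, and no test is given. Reads of these similar neighbouring genes may be split between them by the counting, for which no settings were at hand.

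**Figure D2:**
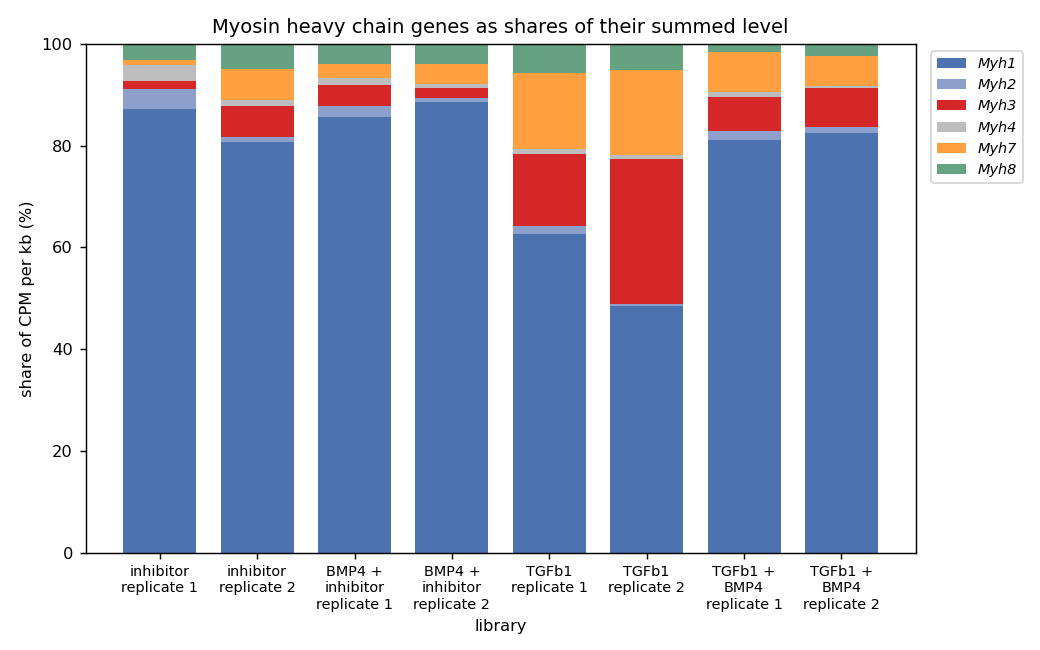
Stacked bars give each myosin heavy chain gene as a percentage of the summed CPM per kb of the 6 genes in each of the 8 libraries. Myh1 (blue) made up 48.5 and 62.6% in the TGFb1 libraries and at least 80.7% in every other library.

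Of the light chains, which stiffen the myosin neck, Myl1 of fast fibres was at 2.00 and 11.5 CPM with inhibitor, 7.95 and 36.3 with BMP4 and inhibitor, 8.00 and 34.5 with TGFb1, and 11.5 and 60.1 with TGFb1 and BMP4. Mylpf, the fast regulatory light chain, was at 1.95 and 6.60 CPM with inhibitor, 4.25 and 16.3 with BMP4 and inhibitor, 4.80 and 21.1 with TGFb1, and 5.50 and 40.0 with TGFb1 and BMP4. Myl4, a light chain of embryonic muscle and atria, was at 0.899 and 4.65 CPM with inhibitor, 2.199 and 10.3 with BMP4 and inhibitor, 6.65 and 30.7 with TGFb1, and 7.10 and 32.8 with TGFb1 and BMP4. Myl1 and Mylpf were higher with TGFb1 and BMP4 than with TGFb1 at both numbers, whereas Myl4 was nearly equal in these groups.

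Troponin makes the thin filament sensitive to calcium through its T, I and C subunits, each with slow and fast forms. The slow Tnnt1 was at 0.949 and 4.65 CPM with inhibitor, 2.80 and 13.99 with BMP4 and inhibitor, 4.50 and 21.5 with TGFb1, and 7.95 and 51.3 with TGFb1 and BMP4, and the fast Tnnt3 at 0.35 and 2.35 CPM with inhibitor, 1.05 and 5.20 with BMP4 and inhibitor, 2.35 and 11.9 with TGFb1, and 2.40 and 21.2 with TGFb1 and BMP4. The slow Tnni1 was at 1.85 and 8.54 CPM with inhibitor, 6.00 and 24.6 with BMP4 and inhibitor, 8.59 and 31.5 with TGFb1, and 13.0 and 60.2 with TGFb1 and BMP4. All 3 were lowest with inhibitor at both numbers and highest with TGFb1 and BMP4. The subunit of slow fibres and heart, Tnnc1, was at 0.6 and 3.298 CPM with inhibitor, 2.498 and 9.89 with BMP4 and inhibitor, 3.40 and 16.1 with TGFb1, and 6.65 and 36.2 with TGFb1 and BMP4, and the fast Tnnc2 at 0.25 and 1.55 CPM with inhibitor, 0.75 and 3.40 with BMP4 and inhibitor, 1.05 and 3.25 with TGFb1, and 0.849 and 5.90 with TGFb1 and BMP4. Tnnc1 made up 62.1 to 85.7% of the pair per kilobase, with both libraries with TGFb1 and BMP4 above the 6 others. Tnnt1 made up 56.5 to 70.4% of its pair.

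The fast troponin I gene Tnni2 did not follow the other sarcomere genes. Tnni2 (chromosome 7, 142441808 to 142444410, plus strand) was at 8.20 and 6.40 CPM with inhibitor, 4.60 and 5.40 with BMP4 and inhibitor, 8.44 and 10.3 with TGFb1, and 5.15 and 8.00 with TGFb1 and BMP4. Both TGFb1 libraries lay above the 6 others, both libraries with BMP4 and inhibitor lay below both inhibitor libraries, the libraries with both ligands overlapped both of those groups, and replicate 1 was the higher inhibitor library. Its neighbour Tnnt3 (chromosome 7, 142498836 to 142516009, plus strand) followed the other muscle genes instead. Tnni2 was left out of the sarcomere sums below, a choice made after its values were seen.

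Muscle also needs calcium release and energy supply. Atp2a1, the calcium pump of the fast sarcoplasmic reticulum, was at 3.298 and 17.0 CPM with inhibitor, 11.7 and 44.6 with BMP4 and inhibitor, 12.1 and 47.1 with TGFb1, and 13.3 and 80.5 with TGFb1 and BMP4. Ryr1, its calcium release channel, was at 2.10 and 5.25 CPM with inhibitor, 8.35 and 15.4 with BMP4 and inhibitor, 5.45 and 18.6 with TGFb1, and 5.00 and 41.0 with TGFb1 and BMP4. Ckm, the muscle creatine kinase and a late differentiation gene, was at 0.15 and 0.7 CPM with inhibitor, 0.15 and 1.50 with BMP4 and inhibitor, 0.55 and 3.05 with TGFb1, and 0.3 and 3.65 with TGFb1 and BMP4. Atp2a1 had the order of the sarcomere sum at both numbers, Ryr1 was highest with BMP4 and inhibitor at number 1, and Ckm stayed at or under 3.65 CPM. Exons of Atp2a1 and of the broadly expressed Rabep2 overlap on opposite strands, as do those of Tnnc2 and Ube2c, and no source used here says whether the counting used strand.

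At the neuromuscular junction, acetylcholine receptors of the fetal type hold an alpha, a beta, a delta and a gamma subunit, and the kinase MuSK gathers them under the nerve ending. Chrna1, the alpha subunit, was at 0.6 and 3.85 CPM with inhibitor, 3.75 and 12.2 with BMP4 and inhibitor, 4.35 and 20.5 with TGFb1, and 8.10 and 72.1 with TGFb1 and BMP4. Chrnd was at 0.55 and 2.55 CPM with inhibitor, 1.65 and 6.80 with BMP4 and inhibitor, 1.60 and 5.85 with TGFb1, and 2.95 and 18.0 with TGFb1 and BMP4. Its neighbour on chromosome 1, the fetal gamma subunit Chrng, was at 0.3 and 2.35 CPM with inhibitor, 1.55 and 7.84 with BMP4 and inhibitor, 2.60 and 12.0 with TGFb1, and 3.70 and 27.3 with TGFb1 and BMP4. All 3 subunit genes were highest in replicate 2 of TGFb1 and BMP4, which stood well above the next library. Musk was at 0.25 and 0.65 CPM with inhibitor, 0.7 and 2.05 with BMP4 and inhibitor, 1.05 and 4.45 with TGFb1, and 1.60 and 12.5 with TGFb1 and BMP4. Chrne, the epsilon subunit that replaces gamma in adult muscle, was at or under 0.1 CPM in every library.

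The promoter of Chrna1 is shown because this junction gene had the largest difference between TGFb1 with BMP4 and inhibitor. Its window lies at chr2:73580339-73580588 on the minus strand of GRCm38.p6, with E-boxes in capitals.
Chrna1: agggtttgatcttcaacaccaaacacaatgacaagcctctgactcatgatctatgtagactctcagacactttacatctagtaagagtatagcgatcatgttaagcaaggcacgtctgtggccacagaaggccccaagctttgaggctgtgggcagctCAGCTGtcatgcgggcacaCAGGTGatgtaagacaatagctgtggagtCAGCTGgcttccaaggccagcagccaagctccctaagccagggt
The matches begin 92, 73 and 44 bases before the start, and those at 92 and 44 read CAGCTG.

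RefSeq promoter windows, which run from 250 bases before to 50 bases after a gene's start, were at hand for 29 of the 36 genes. Searched on both strands, CANNTG was present in 23 of them (79.3%), against 72.3% of all 32851 windows. CAGCTG, a subset of CANNTG, was present in 12 (41.4%), against 16.3% of all windows. The MEF2 site was in 4 (13.8%, against 3.19%) and the CArG box in 3 (10.3%, against 1.63%). These are letter matches and not measured binding.

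The first question was how the ligands changed these genes against inhibitor alone. Levels were higher with TGFb1 and BMP4 than with inhibitor at both replicate numbers for 34 of the 36 genes, the exceptions being Pax7 and Tnni2 (49.3% of all tested genes met that rule). With BMP4 and inhibitor 32 of 36 were higher at both numbers (40.1% of tested genes), and with TGFb1 34 of 36 (42.7%). The summed level over inhibitor at the same number was 3.17-fold and 2.87-fold with BMP4, 4.11-fold and 4.05-fold with TGFb1, and 5.74-fold and 7.58-fold with both. Both libraries of a group were above both inhibitor libraries for 7 of 36 genes with BMP4 (30.9% of tested genes), 18 with TGFb1 (37.9%) and 25 with TGFb1 and BMP4 (44.9%). Tnni2 was lower in both libraries with BMP4 than in both with inhibitor, and the groups of the remaining genes overlapped.

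**Figure D3:**
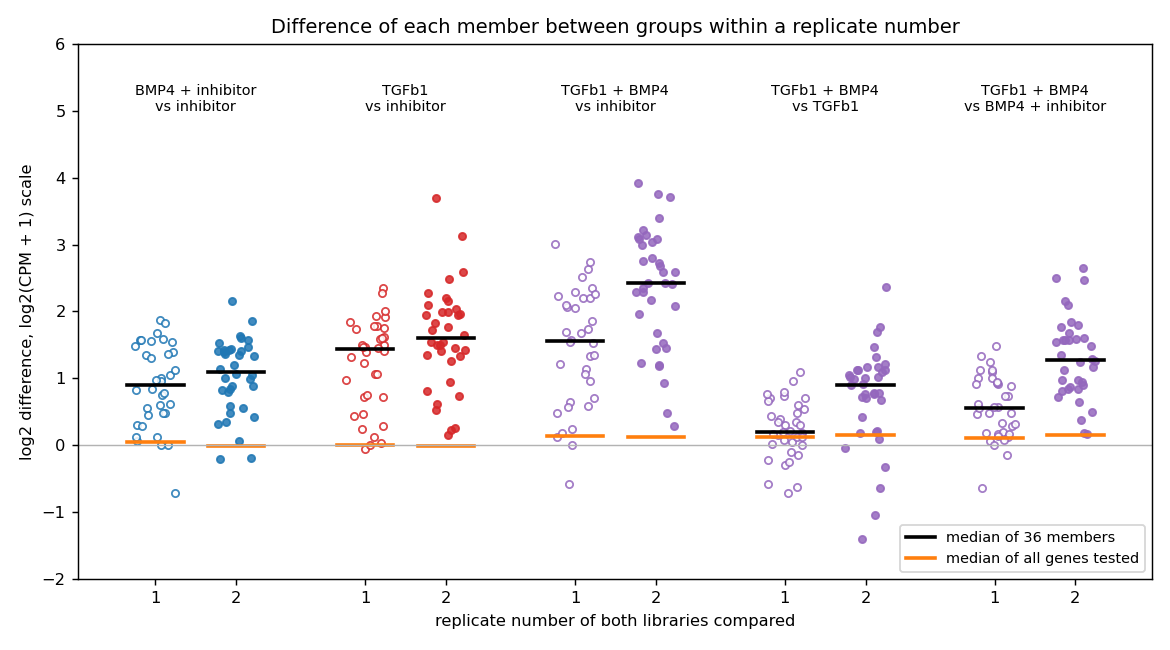
Difference of each of the 36 genes between groups on the log2(CPM + 1) scale, taken within replicate number 1 (open) and within number 2 (filled). Black bars are the medians of the 36 genes and orange bars those of all 16180 genes tested; the black bars lie above the orange in all 10 columns, with the smallest distance at number 1 of TGFb1 + BMP4 against TGFb1 (0.20 against 0.11).

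The test of these differences was limma on log2(CPM + 1) across the 16180 genes that reached 1 CPM in 2 or more libraries, with Benjamini-Hochberg adjustment and a threshold of 0.05. It covered 32 of the 36 genes, a filter that a gene can pass through its high group alone. With group as the only term, 0 of the 32 passed in any comparison. Against inhibitor, 8.41% of all tested genes passed in either direction with BMP4, 40% with TGFb1 and 46% with TGFb1 and BMP4. At an unadjusted p under 0.05, 0, 2 and 8 of the 32 passed in these comparisons, against 26.7%, 50.3% and 55.3% of all tested genes. The median log2 fold change of the 32 was 1.19 with BMP4, 1.62 with TGFb1 and 2.06 with both, against 0.02, -0.01 and 0.13 over all tested genes.

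Libraries with the same number deviated together from their group means, so limma was also run with a replicate block, a term for the number. In that fit 19 of the 32 passed as higher with BMP4 and inhibitor (11.8% of tested genes), 27 with TGFb1 (26.7%) and 30 with TGFb1 and BMP4 (35.2%), and 0 passed as lower. Acta1 rose by 1.76 ± 0.11 (log2 fold change ± SE) with BMP4 (limma adjusted p = 0.000516), by 2.19 ± 0.11 with TGFb1 (4.96e-05) and by 2.90 ± 0.11 with both (1.85e-05), each from 2 libraries a group. Without the block the same differences had an SE of 1.18 and adjusted p of 0.387, 0.18 and 0.0845. Chrna1 had the largest difference with both ligands, 3.21 ± 0.36 with the block (adjusted p = 0.000546) and 3.21 ± 1.17 without (0.0614). Myog rose by 2.75 ± 0.27 with both ligands under the block (adjusted p = 0.000349, 0.0929 without) and Myod1 by 2.64 ± 0.50 (0.00451, 0.0617 without). With both ligands, Ckm and Tnni2 were the 2 tested genes that did not pass, at 0.81 ± 0.30 (adjusted p = 0.0516) and -0.15 ± 0.22 (0.584). With one library left out at a time, the blocked counts ran from 7 to 22 for BMP4, 20 to 30 for TGFb1 and 23 to 30 for both, with the lowest value for TGFb1 and for both without inhibitor replicate 2, and for BMP4 without that library or BMP4 replicate 1. Without the block, 12 members passed for both ligands when replicate 1 of that group was left out, and 2 for TGFb1 when its replicate 1 was left out.

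**Figure D4:**
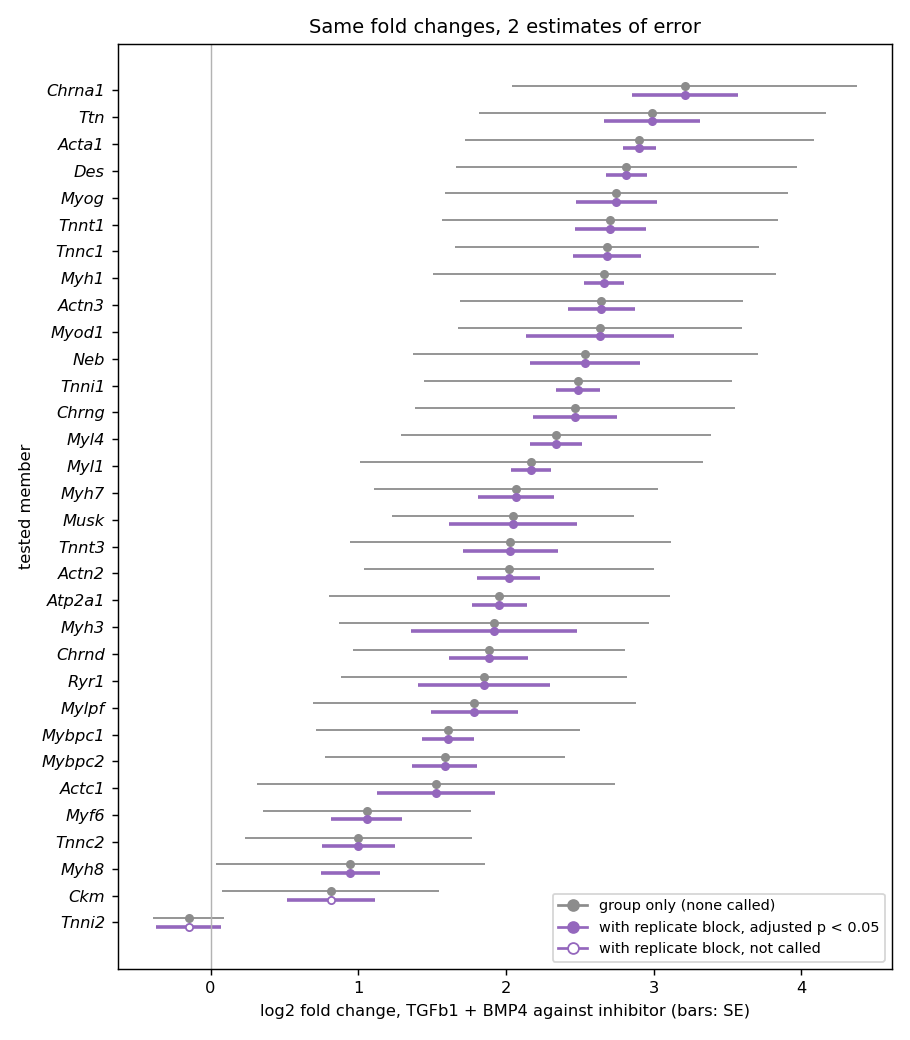
Log2 fold change of the 32 tested genes between TGFb1 + BMP4 and inhibitor with SE bars, grey for the fit with group only and purple for the fit with the replicate block. Both fits give the same fold changes, and the SE of Acta1 is 1.18 in the first and 0.11 in the second; open purple symbols are Ckm and Tnni2, which did not pass.

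Counts by role are from the fit with the block, since without it 0 of the 32 passed. With the block 11.8% of all tested genes passed as higher with BMP4, 26.7% with TGFb1 and 35.2% with both. The 3 tested regulators all passed with both ligands, and only Myog passed with either ligand alone (1.20 ± 0.27 with BMP4, adjusted p = 0.0264, and 1.53 ± 0.27 with TGFb1, 0.00426). With TGFb1, 1 of 3 regulators was near the share of all tested genes. All 4 tested heavy chains passed with TGFb1, led by Myh3 (2.77 ± 0.56, adjusted p = 0.007) and Myh7 (2.70 ± 0.26, 0.00042), and these passed too with both ligands. With BMP4 and inhibitor, Myh3 and Myh7 did not pass (0.21 ± 0.56, adjusted p = 0.821, and 0.52 ± 0.26, 0.193), while Myh1 did (1.65 ± 0.14, 0.00109). All 6 genes of the titin group passed with TGFb1 and with both ligands and 5 with BMP4, the exception being Mybpc2. The junction genes passed in 3, 3 and 4 of 4 cases, Musk being the one that did not pass with either ligand alone.

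The next comparison was BMP4 added to TGFb1. The summed level was 1.40-fold that of TGFb1 alone at number 1 and 1.87-fold at number 2. For 26 of 36 genes the combination was higher at both numbers (54.3% of tested genes), and both libraries of the combination were above both TGFb1 libraries for Myh2 alone (38.3%), while both were below for Tnni2. Without the block 0 of 32 passed (2.01% of tested genes in either direction), and 0 of 32 had an unadjusted p under 0.05 (19.9% of tested genes). With the block 5 passed as higher (3.55% of tested genes), namely Myh1 at 1.06 ± 0.14 (limma adjusted p = 0.0107), Des at 0.88 ± 0.14 (0.0188), Tnni1 at 0.73 ± 0.15 (0.0407), Acta1 at 0.71 ± 0.11 (0.0179) and Myl1 at 0.63 ± 0.14 (0.0462). That count was 0 without replicate 2 of either group, 1 without TGFb1 replicate 1, and 3 without any 1 of the inhibitor or BMP4 libraries. Myod1 had a larger difference with a larger error (1.73 ± 0.50, adjusted p = 0.0897). Myh3, Myh7 and Myh8 were lower with the combination at both numbers, but none passed (-0.85 ± 0.56, adjusted p = 0.362, -0.64 ± 0.26, 0.171, and -0.68 ± 0.20, 0.0943).

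Against BMP4 and inhibitor, the combination was higher at both numbers for 33 of 36 genes (49% of tested genes), and both its libraries were above both with BMP4 and inhibitor for 2 genes, Myh3 and Myh7 (39.6%). Without the block 0 of 32 passed (28.2% in either direction) and 0 had an unadjusted p under 0.05 (41.2%), and with it 21 passed as higher (25.7%). These included Myh7 (1.55 ± 0.26, limma adjusted p = 0.00443), Myog (1.55 ± 0.27, 0.00571) and Myl4 (1.46 ± 0.18, 0.00133). Left-out libraries gave blocked counts of 10 to 26, the lowest without BMP4 replicate 2 or without replicate 2 of the combination, and without the block 2 members passed when replicate 1 of the combination was left out.

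Whether the effect of BMP4 differed with TGFb1 from that with inhibitor was tested as an interaction. Without the block 0 of 32 passed (1.29% of tested genes) and 0 had an unadjusted p under 0.05 (19%), and the median over the 32 was -0.60 against 0.12 over all genes. With the block 4 passed, all with a negative interaction (4.26% of tested genes were lower). For Acta1, Myl1 and Mybpc1 the effect of BMP4 was smaller in the presence of TGFb1. Myh8 was higher with BMP4 in the inhibitor background and lower with BMP4 in the TGFb1 background, at both numbers. Acta1 was at -1.04 ± 0.16 (limma adjusted p = 0.0178), Myh8 at -1.50 ± 0.28 (0.0333), Myl1 at -0.94 ± 0.19 (0.0403) and Mybpc1 at -1.18 ± 0.25 (0.0443). Between 0 and 2 passed when any 1 of the 8 libraries was left out. Myod1 and Myog had interactions of 0.70 ± 0.71 (adjusted p = 0.546) and 0.01 ± 0.39 (0.986), and the log2(CPM + 1) scale understates changes of low genes.

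These genes also differed between the replicate numbers. The summed level of replicate 2 over replicate 1 was 4.25-fold with inhibitor, 3.85-fold with BMP4, 4.18-fold with TGFb1 and 5.61-fold with TGFb1 and BMP4. In all 4 groups replicate 2 was higher for 34 of 36 genes, the exceptions being Pax7 and Tnni2 (22.5% of tested genes met that rule). In a fit of group plus replicate number, 28 of 32 passed as higher in replicate 2 and 0 as lower (4.82% of tested genes were higher), with a median log2 difference of 1.85 against 0.04 over all tested genes. Acta1 differed by 2.14 ± 0.08 (limma adjusted p = 0.00023) and Myh1 by 2.10 ± 0.10 (0.000305). The 4 that did not pass were Myod1 (1.50 ± 0.35, adjusted p = 0.0591), Musk (1.26 ± 0.31, 0.064), Myh3 (1.62 ± 0.40, 0.0643) and Tnni2 (0.17 ± 0.16, 0.522). The count fell to 10 when genes were tested without the filter on low values, and lay between 21 and 27 when any 1 group was left out. The genes that passed between the numbers were also ranked by their difference toward replicate 2. Only genes at 5 CPM or more in the mean of the higher number entered, and predicted genes were left out. Of the 50 highest in that ranking 11 were among these 36. Before the limit at 5 CPM and the removal of predicted genes, 28 of the 780 genes that passed as higher were members. The number of members that entered the ranking is not given here.

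Regulators and structural genes were then set side by side. The 5 regulators summed to 1.00 and 6.50 CPM with inhibitor, 4.55 and 15.8 with BMP4 and inhibitor, 4.45 and 20.7 with TGFb1, and 9.74 and 79.8 with TGFb1 and BMP4. The 23 sarcomere genes other than Tnni2 summed to 30.2 and 153 CPM with inhibitor, 111 and 457 with BMP4 and inhibitor, 151 and 659 with TGFb1, and 218 and 1159.7 with TGFb1 and BMP4. The 4 junction genes summed to 1.70 and 9.40 CPM with inhibitor, 7.65 and 28.9 with BMP4 and inhibitor, 9.59 and 42.8 with TGFb1, and 16.3 and 129.9 with TGFb1 and BMP4. The order of the groups within a number was the same for the sarcomere and the junction, whereas at number 1 the regulators were nearly equal with BMP4 and with TGFb1. At number 2 the combination was 3.86-fold TGFb1 alone for the regulators, 3.04-fold for the junction and 1.76-fold for the sarcomere, and at number 1 these ratios were 2.19, 1.70 and 1.44. As a share of the summed CPM of the 35 genes other than Tnni2, the regulators held 2.60 and 3.39% with inhibitor, 3.18 and 2.81 with BMP4 and inhibitor, 2.43 and 2.61 with TGFb1, and 3.71 and 5.34 with TGFb1 and BMP4. The junction share was 4.42 and 4.90% with inhibitor, 5.34 and 5.12 with BMP4 and inhibitor, 5.23 and 5.40 with TGFb1, and 6.22 and 8.69 with TGFb1 and BMP4. Both shares were higher in the 2 libraries with TGFb1 and BMP4 than in the 6 others, with no test given for groups of 2.

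Other genes of skeletal muscle, from a list of 46 of which 38 were tested, were tested in the same way. With the block 9 passed as higher and 1 as lower with BMP4 (11.8% and 9.85% of all tested genes), 25 and 2 with TGFb1 (26.7% and 26.4%), and 33 and 2 with both (35.2% and 23.7%). Without it 0, 5 and 5 passed as higher, against 5.49%, 20% and 27.6% of all tested genes, and 0, 1 and 1 as lower, against 2.91%, 20% and 18.4%. Mb, the oxygen store myoglobin, was at 0.8 and 6.70 CPM with inhibitor, 3.90 and 20.9 with BMP4 and inhibitor, 10.2 and 48.9 with TGFb1, and 18.9 and 78.0 with TGFb1 and BMP4. Mymk, the membrane protein needed for myoblast fusion, was at 0.1 and 1.50 CPM with inhibitor, 0.7 and 3.40 with BMP4 and inhibitor, 2.10 and 8.79 with TGFb1, and 2.65 and 18.4 with TGFb1 and BMP4, and its partner Mymx was at or under 3.65 CPM. Xirp1, of the muscle tendon junction, was at 0.65 and 2.85 CPM with inhibitor, 2.80 and 11.2 with BMP4 and inhibitor, 3.35 and 15.1 with TGFb1, and 7.10 and 35.3 with TGFb1 and BMP4. These followed the 35 genes in group and in number. The exceptions included Dok7, the activator of MuSK, which was at 15.6 and 17.5 CPM with inhibitor, 12.1 and 16.3 with BMP4 and inhibitor, 0.75 and 2.15 with TGFb1, and 1.35 and 7.79 with TGFb1 and BMP4, higher in the libraries that received inhibitor. Fbxo32, a ubiquitin ligase of muscle wasting that other tissues express as well, was at 20.3 and 15.7 CPM with inhibitor, 41.1 and 27.6 with BMP4 and inhibitor, 123 and 90.9 with TGFb1, and 88.2 and 102 with TGFb1 and BMP4, and replicate 2 was the lower library in 3 of the 4 groups. Pvalb, the calcium buffer of fast adult fibres, was at or under 0.15 CPM throughout.

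Genes of satellite cells and myoblasts, 14 in number with 8 tested, were measured as well. Without the block 1 passed as higher with BMP4, 4 with TGFb1 and 6 with both (5.49%, 20% and 27.6% of all tested genes). With it 1, 7 and 8 passed as higher (11.8%, 26.7% and 35.2%), so that 1 of 8 with BMP4 was near the share of all genes. Megf10, a receptor of satellite cells, was at 0.25 and 0.7 CPM with inhibitor, 1.25 and 3.098 with BMP4 and inhibitor, 6.65 and 21.5 with TGFb1, and 10.7 and 82.2 with TGFb1 and BMP4. Cdh15, the cadherin of myoblasts, was at 0.15 and 0.8 CPM with inhibitor, 0.55 and 0.949 with BMP4 and inhibitor, 1.35 and 5.30 with TGFb1, and 2.70 and 18.0 with TGFb1 and BMP4. Both were highest in replicate 2 of the combination. Ncam1, which nerve cells and other cells express too, was at 0.7 and 2.95 CPM with inhibitor, 10.99 and 14.2 with BMP4 and inhibitor, 114 and 86.4 with TGFb1, and 64.4 and 117 with TGFb1 and BMP4 and was not higher in replicate 2 with TGFb1. Pax3, Calcr, Msc and Mstn were at or under 0.2 CPM in every library.

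Markers of other cell types were measured beside these. The 10 fibroblast markers summed to 60.5 and 151 CPM with inhibitor, 154 and 499 with BMP4 and inhibitor, 1370.2 and 4676 with TGFb1, and 1437 and 6677 with TGFb1 and BMP4. With TGFb1 that sum was 22.6-fold and 31.0-fold that with inhibitor, and 7 of the 9 tested passed as higher in replicate 2 (4.82% of tested genes). Col1a1 was at 3.75 and 13.1 CPM with inhibitor, 32.4 and 103 with BMP4 and inhibitor, 525 and 1673 with TGFb1, and 615 and 2603 with TGFb1 and BMP4. Without the block 0, 5 and 5 of the 9 tested passed as higher than with inhibitor with BMP4, TGFb1 and both. The shares of all tested genes were 5.49%, 20% and 27.6%. As lower 0, 0 and 1 passed (2.91%, 20% and 18.4%). With the block 6, 8 and 8 passed as higher (11.8%, 26.7% and 35.2%), and 0, 0 and 1 as lower (9.85%, 26.4% and 23.7%). The 1 that fell with both was Fbln1, a matrix protein gene, at 34.2 and 41.9 CPM with inhibitor, 34.4 and 30.3 with BMP4 and inhibitor, 45.6 and 68.2 with TGFb1, and 8.89 and 18.3 with TGFb1 and BMP4. At number 1 the combination was above TGFb1 alone for 5 of the 10 markers (10351 of the 16180 tested genes) and at number 2 for 9 (10981 of the tested genes). The fibroblast sum, like that of the muscle genes, was lowest with inhibitor and higher in replicate 2 of every group, but its ratio of TGFb1 to inhibitor was larger. Its part in the muscle results was not tested. The 10 squamous markers summed to 24342 and 21362 CPM with inhibitor, 21122 and 20009.8 with BMP4 and inhibitor, 25398 and 27364 with TGFb1, and 19238 and 15785 with TGFb1 and BMP4. Of these 10, 0 passed between the numbers, where 780 of the 16180 tested genes passed as higher in replicate 2 and 209 as lower.

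The defining smooth muscle genes Myh11, Cnn1 and Myocd were at or under 0.35, 0.1 and 0.1 CPM in every library. Of 10 smooth muscle markers 5 were tested, and 0 passed between the numbers (780 of all 16180 tested genes passed as higher in replicate 2 and 209 as lower). An unadjusted p under 0.05 in that limma fit was reached by 4 of the 5 (4293 of all tested genes). The median log2 difference of the 5 was 0.55, against 0.04 over all tested genes. Against inhibitor without the block, 0, 2 and 3 of the 5 passed as higher with BMP4, TGFb1 and both. The shares of all tested genes were 5.49%, 20% and 27.6%. As lower 0, 1 and 0 passed (2.91%, 20% and 18.4%). With the block 0, 3 and 3 passed as higher (11.8%, 26.7% and 35.2%) and 0, 1 and 0 as lower (9.85%, 26.4% and 23.7%). Acta2, expressed in smooth muscle and activated fibroblasts, was at 0.1 and 0.4 CPM with inhibitor, 1.65 and 3.70 with BMP4 and inhibitor, 10.04 and 25.8 with TGFb1, and 4.60 and 32.6 with TGFb1 and BMP4. Of the 9 cardiac markers, Nkx2-5, a transcription factor of the heart, was at 0 in every library, Nppa, Ryr2 and Mybpc3 were at or under 0.5 CPM, and 5 were tested. Tnnt2, the cardiac troponin T that is also made in developing skeletal muscle, was at 21.8 and 24.3 CPM with inhibitor, 40.7 and 68.0 with BMP4 and inhibitor, 34.5 and 61.6 with TGFb1, and 36.3 and 77.2 with TGFb1 and BMP4, and it was the 1 that passed as higher in replicate 2 (0.69 ± 0.15, limma adjusted p = 0.0461). The atrial light chain Myl7 was at 6.15 and 6.60 CPM with inhibitor, 2.25 and 4.00 with BMP4 and inhibitor, 0.4 and 0.75 with TGFb1, and 0.55 and 0.4 with TGFb1 and BMP4. The natriuretic peptide gene Nppb was at 3.80 and 9.79 CPM with inhibitor, 0.899 and 8.89 with BMP4 and inhibitor, 0.35 and 0.45 with TGFb1, and 0.4 and 0.35 with TGFb1 and BMP4. Both were lower with TGFb1, with or without BMP4, than with inhibitor. The 5 immune markers summed to 148 and 128 CPM with inhibitor, 67.5 and 68.2 with BMP4 and inhibitor, 37.7 and 82.9 with TGFb1, and 30.8 and 76.8 with TGFb1 and BMP4, and Ptprc, the surface protein CD45 of all leukocytes, was at or under 0.3 CPM. Lyz2, a lysozyme of myeloid cells, was at 0.2 and 3.40 CPM with inhibitor, 1.30 and 7.10 with BMP4 and inhibitor, 3.098 and 37.4 with TGFb1, and 5.90 and 51.6 with TGFb1 and BMP4, and was the 1 of the 3 tested that passed as higher in replicate 2 (2.46 ± 0.26, limma adjusted p = 0.00774). Cd68, a lysosomal protein gene of macrophages and other cells, was at 131 and 106 CPM with inhibitor, 51.9 and 47.2 with BMP4 and inhibitor, 23.9 and 34.6 with TGFb1, and 11.04 and 12.5 with TGFb1 and BMP4, highest with inhibitor. Of the 7 Schwann cell and neuron markers 5 were under 1 CPM in every library and 0 of the 2 tested passed between the numbers, but Ret, a receptor of enteric neurons, was at 1.65 and 2.45 CPM with inhibitor, 11.6 and 4.50 with BMP4 and inhibitor, 23.7 and 34.6 with TGFb1, and 15.6 and 38.5 with TGFb1 and BMP4, lowest with inhibitor. The 5 endothelial markers reached at most 3.50 CPM (Tie1). Replicate 2 was the higher library in all 4 groups for 4 of the 10 smooth muscle markers and 2 of the 9 cardiac markers. The same held for 4 of the 5 endothelial, 1 of the 5 immune and 0 of the 7 Schwann cell and neuron markers (22.5% of tested genes). Acta2, Tnnt2 and Lyz2 were among these, as most of the muscle genes were. The part of any of these cell types in the muscle results was not tested.

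**Figure D5:**
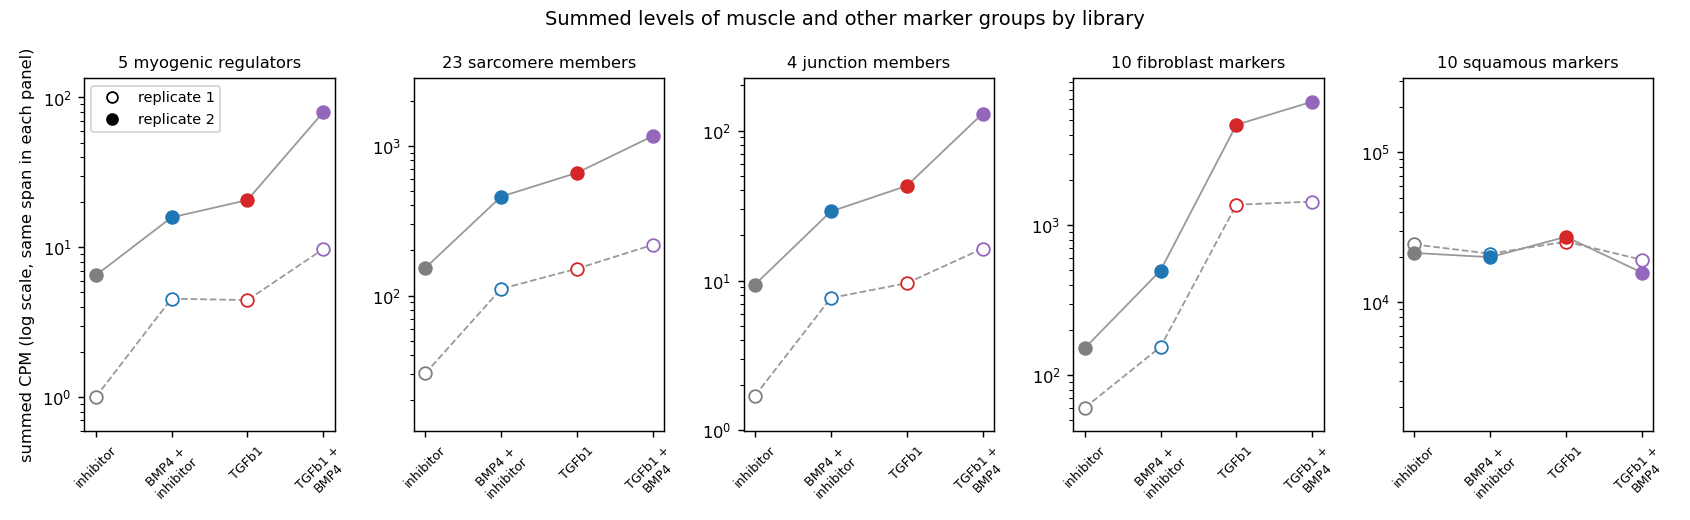
Summed CPM of 5 sets of genes in the 8 libraries, on log axes of equal span; open circles with dashed lines are replicate 1 and filled circles with solid lines replicate 2. The 3 muscle sets and the fibroblast markers are higher in replicate 2 of every group, whereas the squamous markers lie between 15785 and 27364 CPM with the numbers close together.

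The ligand treatments were visible in known response genes. Id1, a direct target of BMP signalling, was at 88.4 and 85.3 CPM with inhibitor, 231 and 219 with BMP4 and inhibitor, 23.8 and 51.7 with TGFb1, and 213 and 157 with TGFb1 and BMP4, and Pmepa1, a target of TGFb signalling, at 11.5 and 9.99 CPM with inhibitor, 50.7 and 29.0 with BMP4 and inhibitor, 427 and 394 with TGFb1, and 638 and 575 with TGFb1 and BMP4. Both genes were apart between the groups that did and did not receive their ligand. Of 8 such genes, 0 were higher in replicate 2 in all 4 groups, a rule that 22.5% of all tested genes met. With only 8 genes, that count cannot be told from the share of all genes.

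The authors' deposited table gives 1 test per gene over all groups, and 0 of the 36 genes had an FDR under 0.05 there, against 8.79% of all 52636 genes. Of these 52636, 20292 were at 0 in every library, so shares in that table are not comparable with those of tested genes above. A p under 0.05 was given in the authors' deposited table for 21.8% of all genes, and of the members this held for Tnni2 alone (p = 0.0444, log2 fold change -0.56 with BMP4, 0.35 with TGFb1 and -0.31 with both). The median log2 fold changes against inhibitor in the authors' deposited table were 1.57 with BMP4, 1.99 with TGFb1 and 2.57 with both.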

How the data were processed

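RNA-seq values of 8 libraries were used. STAR 2.5.3a, Cell Ranger 3.1.0, HTSeq, edgeR, GRCm38 and mm10 appear in the submitters' processing notes without roles; no source used here says whether reads were counted by strand. The authors deposited whole-number values that are treated as a score, since they look like read counts brought to a common total per library and rounded up. The deposited CPM matched these numbers over their sums (largest difference 0.0005). The authors also deposited log2 fold changes with an FDR and a p-value per gene, which are quoted once and entered no test. A repeated copy of the table was set aside.

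Positions and exon lengths are those of GENCODE M21 on GRCm38, in which 99.72% of gene IDs were found, and promoters are those of RefSeq on GRCm38.p6.

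The test was limma 3.58.1 (R 4.3.3) with a mean-dependent trend on log2(CPM + 1), two-sided, over the 16180 genes, 32 members included, that reached 1 CPM in 2 or more libraries. All 8 libraries entered, leaving 4 residual degrees of freedom. Benjamini-Hochberg adjustment was made per comparison, and 0.05 was the threshold. No count test was run, because the whole numbers are scaled. To check the pairing, each library's deviation from its group mean was correlated with that of the same number in the other groups: the 6 correlations were 0.32 to 0.74, and 0.29 to 0.73 after muscle and fibroblast genes were left out. All exceeded 0.1, so results with a replicate block (3 residual degrees of freedom) are printed where they change a call. The labels give the numbers but not their meaning. The code was tested on simulated data.

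Alternatives were a pseudocount of 0.1, no filter on low values, median-of-ratios scaling, the block, and each library left out. All 36 members are named, and of other genes those of the marker lists and those that differed most by replicate number. Members, lists and tests were chosen with earlier results of these data known.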

Additional observations from a re-analysis of the deposited data

Results flagged for a closer look

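The effect of BMP4 on 4 structural muscle genes differed between the TGFb1 background and the inhibitor background in limma's fit with the replicate block. The interaction was -1.04 on the log2(CPM + 1) scale for Acta1, the skeletal actin (limma adjusted p = 0.0178). It was -1.50 for Myh8, the perinatal myosin heavy chain (0.0333), -0.94 for Myl1, a fast light chain (0.0403), and -1.18 for Mybpc1, a slow myosin binding protein (0.0443). None of the 4 passed without the block, and 0 to 2 of the 32 tested members passed with the block when any 1 library was left out. All 4 differences come from the same 8 libraries, and the inhibitor is listed for only 1 of the backgrounds, so ligand and absent inhibitor cannot be told apart. The number of samples per group did not allow a check for single outlying libraries.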

How the results depend on the processing

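With group as the only term, 0 members passed in each of the 6 group comparisons, and this held under median-of-ratios scaling and without the filter on low values. With a pseudocount of 0.1, 1 passed for TGFb1 with BMP4 against inhibitor and 0 in the others. The replicate block moved the counts to 19 (BMP4 with inhibitor against inhibitor), 27 (TGFb1 against inhibitor), 30 (TGFb1 with BMP4 against inhibitor), 5 (TGFb1 with BMP4 against TGFb1), 21 (TGFb1 with BMP4 against BMP4 with inhibitor) and 4 (the interaction). Of all tested genes 11.8%, 26.7%, 35.2%, 3.55% and 25.7% passed as higher with the block, and 4.26% as lower in the interaction. In the same order the block with median-of-ratios scaling gave 21, 29, 30, 3, 19 and 5, and the block with a pseudocount of 0.1 gave 26, 31, 31, 8, 23 and 5, both chosen after seeing the data. Shares of all tested genes are not given here for the alternative settings or for left-out libraries. A change in a member count there cannot be told apart from a general change in the number of calls. With each library left out in turn, the counts without the block ranged from 0 to 0, 0 to 2, 0 to 12, 0 to 0, 0 to 2 and 0 to 0, and with the replicate block, added after seeing the data, from 7 to 22, 20 to 30, 23 to 30, 0 to 4, 10 to 26 and 0 to 2. A group left with 1 library is assumed to vary like the others. Between the replicate numbers 28 passed as higher (4.82% of all tested genes). The count was 29 with median-of-ratios scaling, 31 with a pseudocount of 0.1, 10 without the filter and 21 to 27 without a group. The cause of the lower count was not tested.

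Differences that changed sign were those of Myh3 with BMP4 (-0.38 without inhibitor replicate 1, and with the block -0.10 without inhibitor replicate 2 and -0.63 without BMP4 replicate 1), of Myh7 with BMP4 (-0.23 without inhibitor replicate 1, -0.18 without BMP4 replicate 2), and of Tnni2 with both ligands (without inhibitor replicate 1 0.01, and 0.17 with the block; without replicate 1 of both ligands 0.13, and 0.10 with the block). With a library left out these differences reached at most 1.04 for Myh3 and 1.26 for Myh7, and at least -0.47 for Tnni2. None of these passed in any of the fits.

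Median-of-ratios scaling moved the median of all genes by -0.12 (TGFb1 with BMP4 against inhibitor), -0.12 (against TGFb1), -0.11 (against BMP4 with inhibitor) and -0.11 (the interaction). Levels under 0.15 CPM are imprecise, and such limits cover counting error only.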

Other observations

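Genes outside the muscle list also differed between the replicate numbers with the 4 groups fitted jointly. Predicted genes, named Gm with a number or ending in Rik, were left out of those named here. Among genes at 5 CPM or more, the largest called differences toward replicate 2 were those of Rpsa-ps10, a ribosomal protein pseudogene whose reads may belong to its parent gene (log2 difference 4.63, limma adjusted p = 0.00023), the acute phase gene Serpina3n (2.95, 0.00673), Skint3 (2.94, 0.00156), the acute phase gene Saa3 (2.66, 0.000245) and the scavenger receptor gene Scara5 (2.53, 0.0118). Toward replicate 1 they were the hydrogen peroxide generating oxidase gene Duox2 (-1.08, 0.0234), its maturation factor Duoxa2 (-1.24, 0.0397), the serotonin transporter gene Slc6a4 (-1.78, 0.00498), Padi4, which converts arginine in proteins to citrulline (-2.05, 0.0357), and Klhdc7a (-2.13, 0.0118). The labels do not say what the replicate numbers share.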
